A study of Mus musculus with 6 samples.

Results

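The cytosolic ribosomal protein genes were followed in injured mouse muscle with and without melatonin. They were taken from the deposited gene counts by symbol: protein-coding genes named Rpl or Rps with a number, plus Rpsa, Rplp0, Rplp1 and Rplp2. The kinases with Rps6k symbols and the mitochondrial ribosomal proteins were left out. Of 16289 genes in the table, 83 met the rule, 51 of the large and 32 of the small subunit. All 83 passed the filter on low counts and were among the 16259 genes tested. The libraries came from wild-type C57BL/6J male mice, 12 weeks old, whose tibialis anterior (the shin muscle that lifts the foot) had been injected with glycerol 14 days earlier. Glycerol kills muscle fibres, and the muscle then regenerates with some fat deposited in it. In each group there were 3 biological replicates, called glycerol (glycerol plus a control treatment) and glycerol+melatonin. Dose, route and schedule of the hormone and the nature of the control were not given in the sources used here. RNA extraction is described for longissimus dorsi, a muscle along the spine, where the tissue label names tibialis anterior. Summed markers of fast muscle fibres were at 109400 to 184000 CPM (counts scaled to 1e6 per library) in the 6 libraries, a level of fast muscle that does not tell these muscles apart.

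Each cytosolic ribosome carries one copy of most of these proteins, on a large subunit that joins amino acids and a small subunit that reads the messenger. Their messengers are among the most abundant short transcripts of a cell. Many begin with a C followed by an unbroken run of pyrimidines, the terminal oligopyrimidine or TOP motif, through which the growth kinase mTORC1 controls their translation. Some members have a paralog, and Rpl3l is known as the form of Rpl3 that mature striated muscle uses.

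The first bases of annotated transcripts show this motif in some members and not in others. They are printed 5′ to 3′ with the opening run of C and T, where it starts with C, in capitals, for the members whose principal transcript has a long run, then for Rpl3 and its muscle paralog.
Rps24: CTCTTTTCCTCCTCTCCagctccg
Rpl32: CTTCCTTCTTCCTCggcgctgcct
Rpl4: CTTTTCCTgtgggagcagccgggt
Rpl37: CTCTTCCggtctctttggcctcgc
Rpl36: CTTCCTgtcccggccgccatcgga
Rpl3: agggggcggagccatcacttggct
Rpl3l: agctctgtcatttgacctctggtg
On GRCm38 these lie at chr14:24490718-24490741 (plus strand) for Rps24, chr6:115808724-115808747 (minus) for Rpl32 and chr9:64173375-64173398 (plus) for Rpl4. Rpl37 is at chr15:5116645-5116668 (plus) and Rpl36 at chr17:56613416-56613439 (plus). Rpl3 is at chr15:80083383-80083406 (minus) and Rpl3l at chr17:24727820-24727843 (plus). All are the start of the first exon of the gene's principal transcript. The run was 17 bases long in Rps24, 14 in Rpl32, 8 in Rpl4, 7 in Rpl37 and 6 in Rpl36. A run of at least 5 began the principal transcript of 8 of 83 members (9.64%) and of 313 of 13927 other protein-coding genes (2.25%). With every annotated coding transcript of a gene allowed, 22 members (26.5%) and 794 other genes (5.70%) had one. Annotated starts were not measured in these libraries, and no match says only that these letters do not open the annotated transcript.

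A further feature was more frequent in promoters of members than in those of other genes, though not in most of them. RefSeq promoter windows on GRCm38.p6, from 250 bases before to 50 after the start, were found for 63 of 83 members. The ETS core CCGGAAG, read on both strands (CTTCCGG on the other), was in 26 of the 63 (41.3%) and in 2657 of 26962 other genes (9.85%). It was in 8.86% of all 32851 RefSeq windows. Neither these windows nor the other genes of this paragraph were limited to genes in the count table. These stretches, with the core in capitals, show it in members that return below, both with high and with low fold changes.
Rpl37: accaagacccgCCGGAAGtagtttcctggg
Rplp2: gaaatgtcttcCTTCCGGtgcacccttttc
Rps2: atttatacgtcCTTCCGGctggtgtagggc
Rps26: ttaatcttccgCCGGAAGgttaaatagttc
Rpsa: cgccccagctaCTTCCGGcctggggtctgt
They lie at chr15:5116579-5116608 (plus) for Rpl37, chr7:141447532-141447561 (plus) for Rplp2 and chr17:24719925-24719954 (plus) for Rps2. Rps26 is at chr10:128626702-128626731 (minus) and Rpsa at chr9:120127567-120127596 (plus). The windows follow RefSeq starts, which can differ from those of the principal transcripts above. The principal transcript of Rps26 starts at chr10:128626747 (minus) and that of Rplp2 at chr7:141447370 (plus). The stretches of these 2 genes lie downstream of those starts. The YY1 core AAGATGGC, which can share its first bases with the ETS core, was in 6 of the 63 (9.52%) and in 3.17% of other genes. The letters TATAAA were in 7 (11.1%) and in 15.7% of other genes, again on both strands. A match is a description and not a bound site.

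As a group, the ribosomal protein genes took a larger share of the counts in each glycerol+melatonin library than in any glycerol library. Their share was 1.18%, 1.26% and 1.96% of all counts in glycerol replicates 1, 2 and 3, and 2.10%, 2.46% and 2.65% in glycerol+melatonin replicates 1, 2 and 3. The means were 1.47% ± 0.428 and 2.40% ± 0.277 (SD, n = 3 each), 1.64 times as high with melatonin. Without glycerol replicate 3, the glycerol library nearest to the other group, the ratio was 1.97. In whole muscle, fewer cells of a type and less RNA per cell cannot be told apart. Counts scaled by TMM factors, which correct for the few genes that fill a library, gave a smaller gap. Summed CPM were 13600, 14240 and 18900 in glycerol against 21760, 21740 and 23240 in glycerol+melatonin, a ratio of 1.43. The 3 highest sums were again those with melatonin. Part of each library was mitochondrially encoded RNA, at 17.9%, 14.9% and 10.3% in glycerol against 11.2%, 8.70% and 12.8% in glycerol+melatonin, and the members were also measured without it. As a share of the counts that were not mitochondrial, the members stood at 1.70% ± 0.419 and 2.70% ± 0.336 (SD, n = 3 each). In a fit without the mitochondrial genes the ratio of summed CPM was 1.43.

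**Figure D1:**
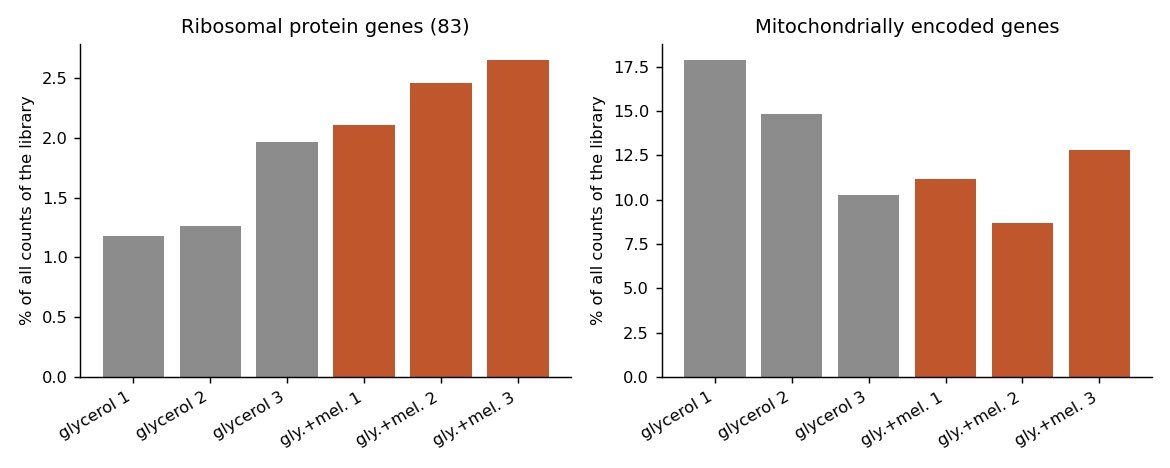
Share of all counts, in percent, taken by the 83 ribosomal protein genes (left) and by mitochondrially encoded genes (right), one bar per library, grey for glycerol and orange for glycerol+melatonin. The ribosomal share runs from 1.18% to 1.96% in glycerol and from 2.10% to 2.65% in glycerol+melatonin, while the mitochondrial shares of the groups overlap.

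Nearly all members stood higher with melatonin, and edgeR called none of them singly. With melatonin, 82 of 83 had a log2 fold change above 0, against 51.7% of all genes tested, and the only one below 0 was Rpl3l. Their median was 0.58 and the range -0.21 to 1.07, while the median of all genes was 0.016. No member passed edgeR's quasi-likelihood test at a Benjamini-Hochberg adjusted p under 0.05 (lowest 0.107, highest 0.944), a threshold that 12 of 16259 genes passed (0.0738%), 3 of them higher (0.0185%) and 9 lower (0.0554%). At an unadjusted p under 0.05, 60 members were higher (background 10.1%) and 0 lower (background 9.39%). Members are short messengers, and short transcripts outside the set were also mostly above 0. After a correction for transcript length, described with the length results, the median was 0.32 and 23 members were higher at that threshold (background 9%). In 62 members the lowest glycerol+melatonin library lay above the highest glycerol library, as in 13.6% of all genes, and in 0 the reverse, as in 12.5%. The other tools differed in their calls. DESeq2 called 20 of the 82 members that it gave an adjusted p as higher (background 2.25%) and 0 as lower (background 2.88%, or 5.13% in either direction). limma-voom called 0 of 83 (background 0.0185% higher and 0.0554% lower), and with sample weights it called 8 higher (background 0.615%), all of them among the 20. Members are transcripts of the same 6 muscles and not replicates, so these counts do not measure how often the result would recur.

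Glycerol replicate 3 stood between the groups. It was the highest glycerol library in 77 of 83 members and lay above at least 1 glycerol+melatonin library in 18. Glycerol replicates 1 and 2 were both below every glycerol+melatonin library in 79. Replicate 1 was the lowest of all 6 in 62. Left out in turn, the glycerol libraries moved the median to 0.47 (replicate 1), 0.50 (replicate 2) and 0.83 (replicate 3). The number higher at an unadjusted p under 0.05 went to 29, 26 and 73, against backgrounds of 6.01%, 5.58% and 12.3% of all genes in the same fits. Among the 6 libraries glycerol replicate 3 also had the most RNA of fat cell markers, at 304.2 summed CPM against 41.1 to 147.8 in the others, and the part of this in its ribosomal levels was not tested.

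**Figure D2:**
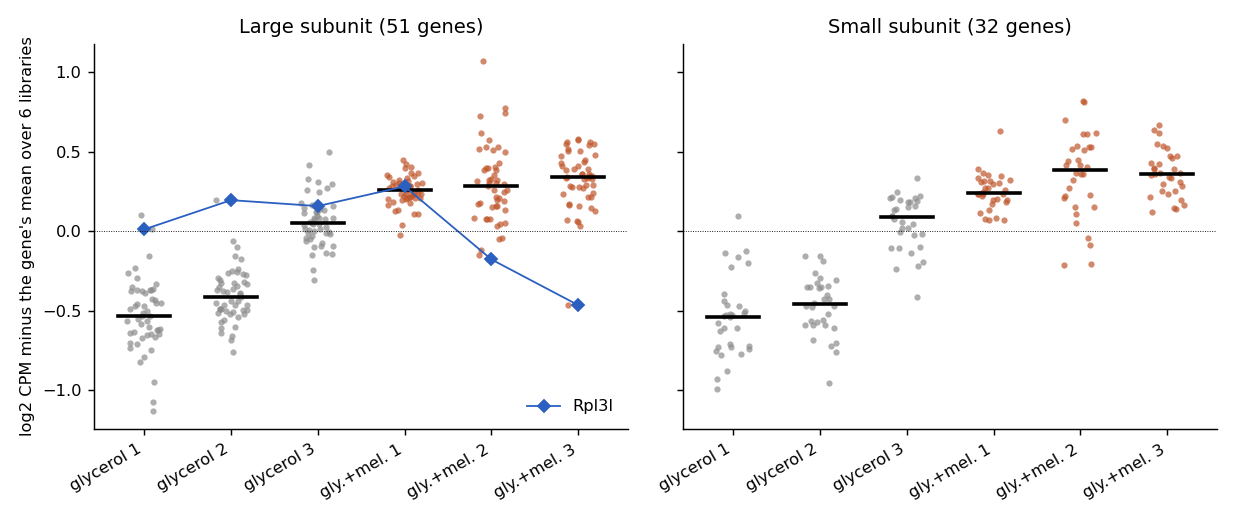
Log2 CPM of each ribosomal protein gene minus that gene's mean over the 6 libraries, one point per gene and library, with the median as a black bar, for the large (left) and small (right) subunit. The medians of glycerol replicates 1 and 2 lie near -0.5 and those of all 3 glycerol+melatonin libraries above 0.2, with glycerol replicate 3 between them, and Rpl3l (blue line) takes another course.

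The large and small subunits differed little. Of 51 large subunit genes 50 were above 0, with a median log2 fold change of 0.54, and 38 were higher with no overlap between groups. Of 32 small subunit genes 32 were above 0, with a median of 0.61, and 24 were higher with no overlap. Over all genes 51.7% were above 0 and 13.6% higher with no overlap. Large over small, the ratio of summed CPM, was 1.63, 1.67 and 1.64 in glycerol against 1.62, 1.55 and 1.56 in glycerol+melatonin. The means were 1.64 ± 0.0227 and 1.58 ± 0.0361 (SD, n = 3 each), so all 3 melatonin libraries were below all 3 others by a small margin. Small minus large, the medians differed by 0.072, and under a correction for transcript length (below) by 0.011.

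The lateral stalk recruits elongation factors to the large subunit, and its proteins had different fold changes. The stalk base Rplp0 stood at 622, 638.5 and 828 CPM in glycerol against 940.2, 871 and 855 in glycerol+melatonin, with a log2 fold change of 0.35 ± 0.19 (SE; edgeR adjusted p = 0.329). The acidic stalk proteins Rplp1 and Rplp2 stood higher above glycerol. Rplp1 was at 223, 233 and 312 CPM against 384, 482 and 463 (0.79 ± 0.19, edgeR adjusted p = 0.140). Rplp2 went from 99.9, 109 and 174 CPM to 232, 257 and 235 (0.92 ± 0.23, edgeR adjusted p = 0.141). Rpl12, which holds the base of the stalk, was at 0.72 ± 0.21 (edgeR adjusted p = 0.164). None of these 4 overlapped between groups, as held for 74.7% of all members and 13.6% of all genes, all higher with melatonin. The differences among the 4 were not tested.

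Rpl5 and Rpl11 form a particle with the smallest ribosomal RNA and can hold back the ubiquitin ligase Mdm2. Rpl5 was at 182, 209 and 314 CPM in glycerol against 302.0, 278 and 329 in glycerol+melatonin (0.37 ± 0.22), and the groups overlapped through glycerol replicate 3. Rpl11 was at 109, 125 and 195 CPM against 204, 226 and 218 (0.59 ± 0.23), with no overlap.

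Around the catalytic centre and the tunnel through which the new chain leaves, members ranged from near 0 to among the largest. Rpl4, which lines the tunnel, was almost level at 541, 593 and 697 CPM against 687, 614 and 705 (0.13 ± 0.18). Rpl3 (0.33 ± 0.27) and Rpl10 (0.35 ± 0.22), next to the catalytic centre, overlapped between groups. Rpl23a (0.44 ± 0.18) and Rpl17 (0.71 ± 0.17), at the tunnel exit, did not. Rpl39, a very small protein of the tunnel wall, had the highest fold change of the large subunit. Its CPM were 47.2, 45.6 and 75.03 in glycerol against 102, 132 and 97.2 in glycerol+melatonin (0.98 ± 0.23, edgeR adjusted p = 0.136), so the lowest melatonin library was above the highest glycerol library.

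By p-value Rpl37, Rpl35a and Rpl36 led the large subunit, with Rpl39 after them. Rpl37 stood at 80.2, 89.1 and 117 CPM in glycerol against 160.1, 177 and 165 in glycerol+melatonin (0.81 ± 0.18, edgeR adjusted p = 0.132). Rpl35a was at 78.3, 91.8 and 124.5 CPM against 179, 187 and 172 (0.87 ± 0.20, edgeR adjusted p = 0.134). Rpl36 was at 77.3, 93.1 and 128.5 CPM against 177, 227 and 180 (0.96 ± 0.22, edgeR adjusted p = 0.134). All 3 groups of melatonin values lay clear of glycerol, with glycerol replicate 3 the nearest. Picking by p-value favours such genes, and 74.7% of all members and 13.6% of all genes were higher with no overlap. DESeq2 called Rpl37, Rpl35a, Rpl36 and Rpl39 higher, with adjusted p from 0.00515 for Rpl36 to 0.00758 for Rpl39. At the other end of the large subunit, Rpl29 was at 97.8, 119 and 189.8 CPM in glycerol against 147.5, 130.4 and 139.8 in glycerol+melatonin (0.039 ± 0.24, edgeR adjusted p = 0.944). Its highest value was glycerol replicate 3, and its sign was negative under each correction for transcript length and without glycerol replicate 1, glycerol replicate 2 or glycerol+melatonin replicate 1. Rpl7l1 was at 0.24 ± 0.16.

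In the small subunit, Rps28 had the lowest p of all 83 members. Its CPM were 37.1, 37.6 and 49.5 in glycerol against 71.7, 81.7 and 82.4 in glycerol+melatonin, with means of 41.4 ± 7.004 and 78.6 ± 6.02 (SD, n = 3 each). The log2 fold change was 0.92 ± 0.17 (edgeR adjusted p = 0.107, DESeq2 adjusted p = 0.000712). Rps12 was at 92.2, 99.9 and 142 CPM against 182, 218 and 242 (0.94 ± 0.21, edgeR adjusted p = 0.132). Rps29, a small zinc finger protein of the subunit's head, had the highest fold change of all members. It went from 55.8, 62.9 and 108 CPM to 139.7, 187 and 148 (1.07 ± 0.26, edgeR adjusted p = 0.140), or 2.10-fold. Rps20 was at 90.4, 75.8 and 123.5 CPM against 143, 192 and 164.0 (0.78 ± 0.22, edgeR adjusted p = 0.156). These 4 were named for having the lowest p of the subunit, which favours groups that lie apart, as theirs did. Higher with no overlap were 74.7% of all members and 13.6% of all genes.

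Proteins of the messenger channel and of the head and body were named by role, and some members for a fold change near 0. Their sizes are not ranked against the 4 above, which were picked by p-value. Rps2, at the channel's entrance, was at 569, 546 and 608 CPM in glycerol against 765, 728 and 752 in glycerol+melatonin (0.38 ± 0.16, edgeR adjusted p = 0.241). Its 2 groups were narrow and apart. Rps3 (0.37 ± 0.21) overlapped, while Rps9 (0.63 ± 0.19) did not. Rps6, the protein that the S6 kinases phosphorylate, was at 295, 289 and 299 CPM against 371, 311 and 434 (0.34 ± 0.17), with no overlap but a wide melatonin group. Rpsa, also known as a laminin receptor, was at 451, 405 and 459.9 CPM against 563, 482 and 650.0 (0.37 ± 0.18). Rps4x (0.35 ± 0.20) and Rps26 (0.34 ± 0.24) overlapped. Rps27a, which is made as a fusion with ubiquitin, was at 86.1, 98.2 and 165 CPM against 183, 226 and 183 (0.76 ± 0.25).

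Genes mutated in Diamond-Blackfan anaemia, an inherited failure of red cell formation, were spread over the range. Rps19, the gene most often affected, was at 50.6, 62.5 and 116 CPM in glycerol against 125, 178 and 127 in glycerol+melatonin (0.91 ± 0.31, edgeR adjusted p = 0.188). Rpl35a was given above, and Rps10 was at 0.47 ± 0.17, Rps24 at 0.46 ± 0.22, Rps7 at 0.44 ± 0.22 and Rps26 at 0.34 ± 0.24. None passed edgeR's test.

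Several members serve as reference genes in quantitative PCR, where a level that does not vary between samples is assumed. All 6 of those looked at were above 0 and did not overlap between groups, as held for 74.7% of all members and 13.6% of all genes. Rplp0 was lowest of them (0.35 ± 0.19), followed by Rpl19 (0.48 ± 0.18), Rpl27 (0.59 ± 0.18), Rps18 (0.65 ± 0.25), Rpl32 (0.69 ± 0.18) and Rpl13a (0.77 ± 0.20). DESeq2 called Rpl32 (adjusted p = 0.0236) and Rpl13a (adjusted p = 0.0214) higher. Rpl38, which is known for a role in which messengers are translated in the embryo, was at 58.9, 57.4 and 91.7 CPM against 114, 110.1 and 132 (0.78 ± 0.21). Rpl41, the shortest protein of the ribosome, was at 0.66 ± 0.20.

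**Figure D3:**
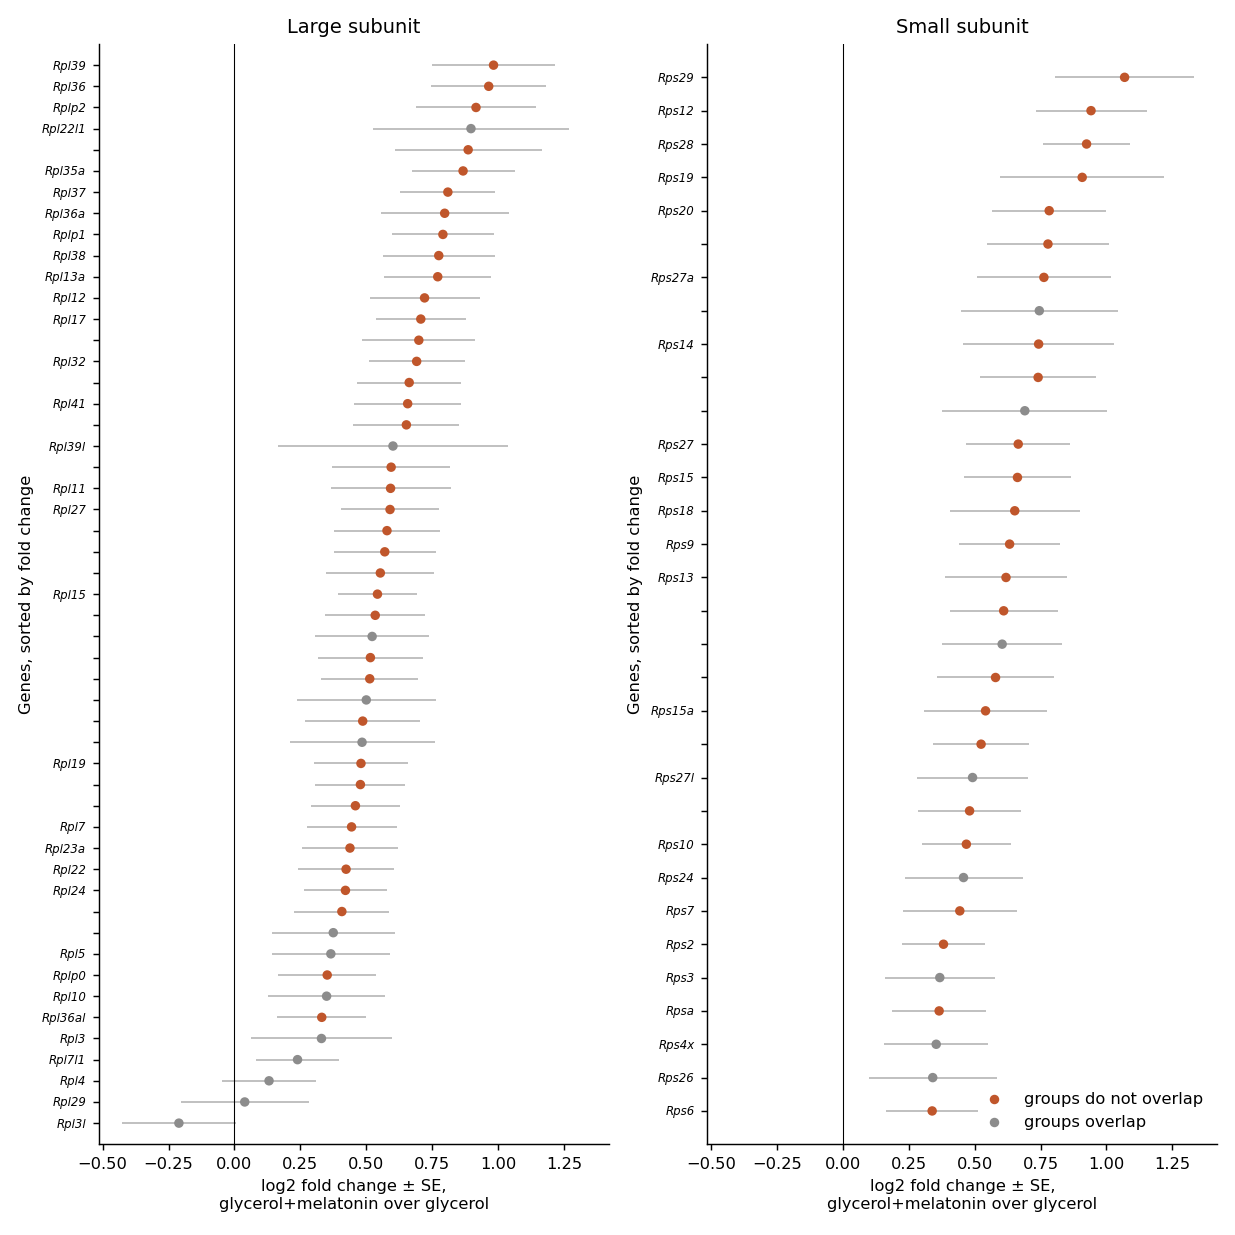
Log2 fold change of glycerol+melatonin over glycerol with its standard error for every ribosomal protein gene, large subunit left and small subunit right, sorted by size, with the genes that the text describes labelled, and genes whose groups do not overlap in CPM in orange and the others in grey. All but Rpl3l lie above 0, and values run up to 0.98 for Rpl39 and 1.07 for Rps29.

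Although the finished particle holds the proteins in nearly equal number, counts per kilobase of principal transcript were far from even. The median member was at 256 CPM per kilobase and the median of all genes at 3.67. The highest of the large subunit were Rplp1 (700.0), Rpl23a (668.5) and Rplp0 (584), and of the small subunit Rps15 (751), Rps2 (663) and Rps14 (472), all in CPM per kilobase. The lowest of the large subunit were Rpl39l (0.576), Rpl7l1 (17.3) and Rpl22 (36.7). In the small subunit Rps15a (26.0) and Rps20 (35.4) came lowest, followed by Rps27l (104). The principal transcripts of Rps15a and Rps20 are annotated as 5179 and 3706 bases long. Divided by coding length, the lowest of the small subunit were Rps27l (206), Rps19 (252.5) and Rps13 (283.5), and of the large subunit Rpl39l (3.03), Rpl7l1 (61.1) and Rpl22l1 (61.9), in CPM per coding kilobase. Rpl39l and Rpl7l1 were therefore lowest on both scales, and the low place of Rps15a and Rps20 depended on the annotated length. Across the 83 members, level per kilobase and fold change were almost unrelated (Spearman's rho = -0.098). This is a description over genes of the same 6 libraries.

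Rpl3l, on chromosome 17 from 24727820 to 24736143, and Rpl3, on chromosome 15 from 80077791 to 80091868, did not follow each other over the libraries. Per kilobase, Rpl3l was at 328, 372 and 363 CPM in glycerol against 395, 287.5 and 236 in glycerol+melatonin. Rpl3 was at 86.1, 92.2 and 169 CPM per kilobase in glycerol against 124, 158 and 154 in glycerol+melatonin. The muscle form was thus the more abundant of the pair in all 6 libraries. Their ratio was 3.81, 4.04 and 2.15 in glycerol against 3.18, 1.82 and 1.53 in glycerol+melatonin. The mean log2 ratio was 1.68 ± 0.50 in glycerol against 1.05 ± 0.55 in glycerol+melatonin (SD, n = 3 each). The difference of -0.63 did not pass a two-sided exact permutation test over the libraries (p = 0.2, 0.3 adjusted over 6 paralog pairs). With 3 libraries in each group that test cannot give a p below 0.1. Summed markers of fast fibres, cells in which Rpl3l is known to be made, were at 168200, 184000 and 153000 CPM in glycerol against 168900, 137900 and 109400 in glycerol+melatonin. Glycerol+melatonin replicate 3 was the lowest both there and for Rpl3l, and the part of fibre content in the ratio was not tested.

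The other 5 pairs differed less in mean log2 ratio than Rpl3l over Rpl3, whose groups overlapped. The groups of Rpl36al over Rpl36a and of Rpl7l1 over Rpl7 did not overlap. Rpl36al, whose protein is nearly that of Rpl36a, stood over Rpl36a by a ratio per kilobase of 1.94, 2.01 and 1.48 in glycerol against 1.40, 1.25 and 1.15 in glycerol+melatonin. These groups did not overlap, the log2 difference was -0.51, and the exact permutation p was 0.1, the smallest this design allows (0.3 adjusted). Rpl36a itself went from 27.6, 28.5 and 50.7 CPM to 57.8, 60.7 and 67.1 (0.80 ± 0.24, edgeR adjusted p = 0.173). Rpl36al was at 0.33 ± 0.17. As both genes encode nearly the same protein, reads may have been shared between them, and their values are uncertain to that extent.

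Rpl7l1, a nucleolar relative of Rpl7, was at 0.0678, 0.0744 and 0.0670 times Rpl7 per kilobase in glycerol against 0.0632, 0.0633 and 0.0549 in glycerol+melatonin. It was thus the minor gene of its pair throughout, with a log2 difference of -0.21 (exact permutation p = 0.1, 0.3 adjusted). Its principal transcript is 2606 bases long and that of Rpl7 1163. No paralog ratio was corrected for the trend of fold change with transcript length given below, and the part of length in this difference was not tested. Rps27l, a target of the tumour suppressor Trp53, was at 0.259, 0.293 and 0.291 times Rps27 in glycerol against 0.258, 0.267 and 0.226 in glycerol+melatonin (log2 difference -0.17, exact permutation p = 0.2).

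Rpl22l1 over Rpl22 was 0.686, 0.835 and 1.124 in glycerol against 1.10, 1.76 and 0.922 in glycerol+melatonin (log2 difference 0.49, exact permutation p = 0.3). It was the only pair in which the mean ratio was higher with melatonin, and its groups overlapped. The highest value of Rpl22l1, 42.6 CPM, was that of glycerol+melatonin replicate 2, and the other libraries were at 9.64 to 24.5. Rpl39l, known mainly from the testis, had 8, 16 and 22 reads in glycerol against 22, 36 and 24 in glycerol+melatonin, so counting error is large. Its ratio to Rpl39 was 0.00318 to 0.00614 and 0.00374 to 0.00399. Rps4l is annotated as a transcribed processed pseudogene and so is no member. It was at 9.76, 7.81 and 13.1 CPM against 12.1, 15.3 and 13.6. Rpl10l was not analysed here.

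**Figure D4:**
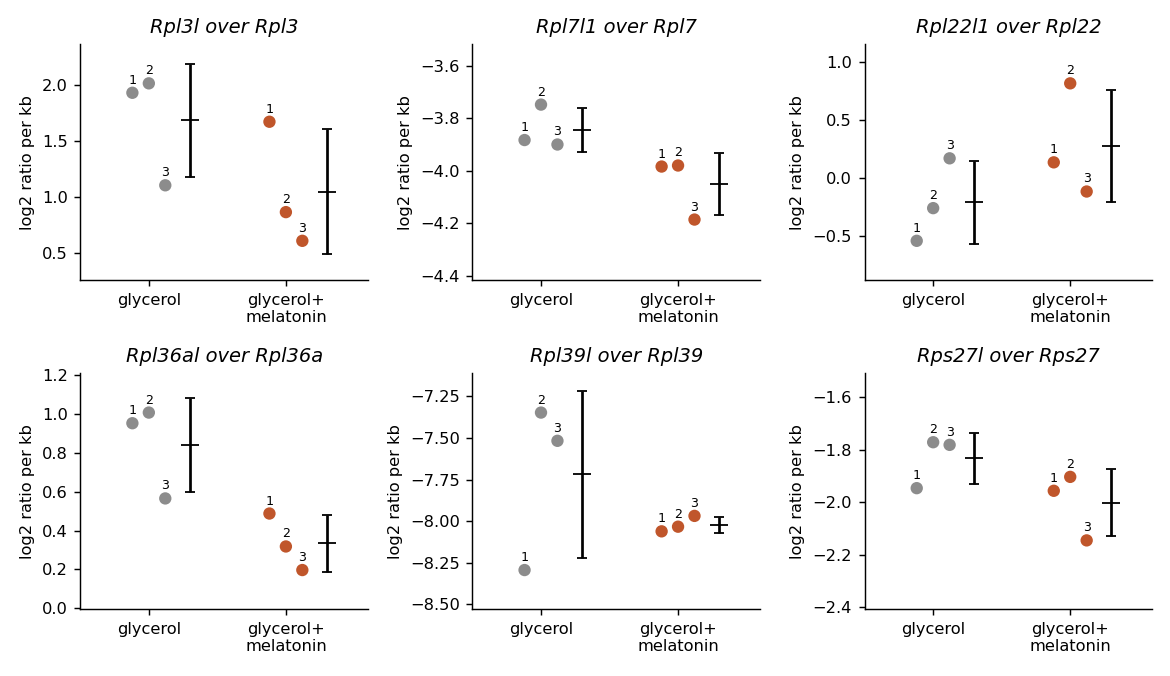
Log2 ratio of each paralog to its partner, both in counts per kilobase, in every library (numbered points), with mean and SD beside them, grey for glycerol and orange for glycerol+melatonin; each panel has its own axis range. Rpl36al over Rpl36a and Rpl7l1 over Rpl7 have groups that do not overlap, and the points of the other 4 pairs overlap.

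Reads of these genes can also fall on their many processed copies. The table holds 79 genes named as pseudogenes of 40 members, of which 75 are annotated as processed pseudogenes. Together they had 145.9, 135 and 173 CPM in glycerol against 230.2, 236.5 and 279 in glycerol+melatonin, and 78 of 79 had a log2 fold change above 0. Their sum followed that of the members at about one hundredth of its size. Adding them to the parent genes gave a median of 0.58. Of the members, 18 share exon bases with a gene in the table, 5 on the same strand and 13 on the opposite strand, and as the labels do not say whether strands were counted apart, these values are uncertain. Among those on the same strand were Rpl10 with Snora70, Rpl13a with Gm45713, Rpl19 with Gm27597 and Rpl24 with Gm28037. Summing all 5 pairs left the median at 0.58.

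Shorter transcripts had higher fold changes, in members and outside them. The principal transcripts of members had a median length of 830 bases (345 to 5179), that of all genes tested being 2734. Across members, length and log2 fold change had a Spearman's rho of -0.50 (n = 83 genes of the same 6 libraries). Up to 500 bases, 13 members had a median of 0.78 and 80 other protein-coding genes one of 0.60. Above 500 and up to 1000 bases the medians were 0.58 (44 members) and 0.36 (729 others), and above 1000 and up to 2000 bases 0.48 (21 members) and 0.13 (3040 others). Above 2000 bases there were 5 members, and other genes were at -0.035 up to 4000 bases and -0.15 beyond. Members were thus above other genes of like annotated length in each bin. The 1 member over 4000 bases was Rps15a, with a coding length of 390 bases. Rps20 (3706 bases, coding length 357) was among those above 2000 and up to 4000 bases. The bins of these 2 members rest on their annotated length. With a smooth of length fitted in each library as an offset, the median of the members was 0.32, that of the large subunit 0.32 and that of the small subunit 0.33. Above 0 were then 79 of 83 (background 52.9%), and 23 were higher at an unadjusted p under 0.05 (background 9%) in place of 60. The median of all genes was 0.030 in that fit, and edgeR called 7 genes, none of them a member. Other genes with the shortest transcripts stayed above that median. Up to 500 bases the corrected medians were 0.45 for members and 0.27 for other protein-coding genes. Above 500 and up to 1000 bases they were 0.28 and 0.063, and above 1000 and up to 2000 bases 0.31 and -0.016. The signs of Rpl4, Rpl29 and Rpl36al turned, with Rpl29 at -0.25 and the others within 0.02 of 0. Fitting the smooth without the members gave a median of 0.33.

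**Figure D5:**
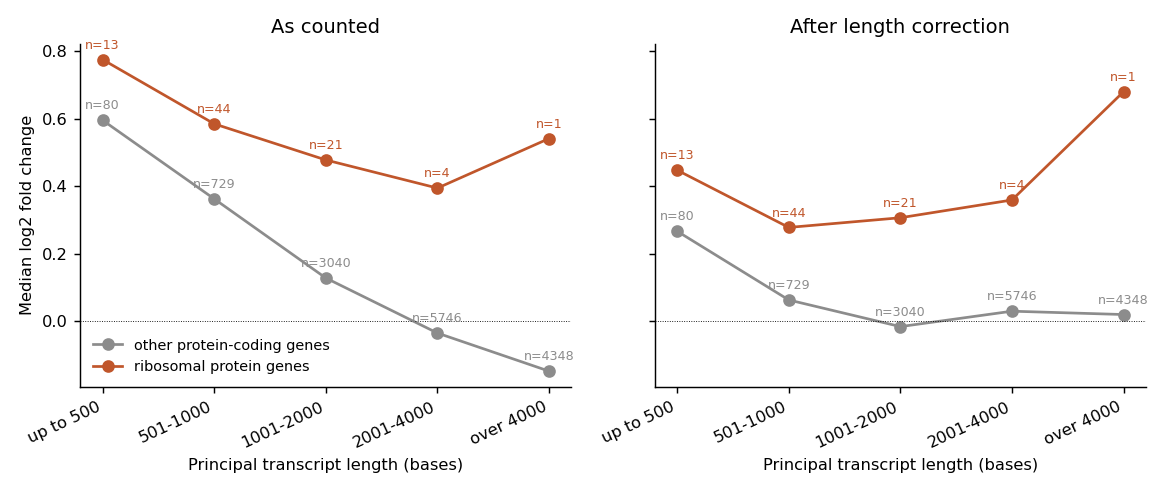
Median log2 fold change of glycerol+melatonin over glycerol by length of the principal transcript in bases, for ribosomal protein genes (orange) and other protein-coding genes (grey), as counted (left) and after the length correction (right), with the number of genes at each point. As counted, both lines slope down from short to long transcripts up to 4000 bases. The members lie above the other genes in every bin of both panels. The last bin holds 1 member, Rps15a, placed there by its annotated length.

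Subunits of the same particle that the symbols do not catch were also above 0, 3 of 3, with a median of 0.42 against 0.58 for the members, and 1 of the 3 was higher with no overlap between groups. Among all genes tested the shares were 51.7% above 0 and 13.6% higher with no overlap. Fau, which encodes a ubiquitin-like protein fused to the ribosomal protein eS30, was at 94.4, 93.8 and 144.5 CPM in glycerol against 186.5, 216 and 209.9 in glycerol+melatonin (0.88 ± 0.21, edgeR adjusted p = 0.134). Rack1, a scaffold on the small subunit's head, was at 0.42 ± 0.20, and its groups overlapped.

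Genes that build or drive the ribosome had medians from -0.17 to 0.041, and none passed edgeR's test. Of 30 ribosome biogenesis genes 16 were above 0, with a median of 0.041. Tsr1, needed for small subunit maturation, was at 10.3, 18.9 and 8.26 CPM against 6.19, 6.13 and 5.92 (-1.04 ± 0.30, edgeR adjusted p = 0.162), and the pseudouridine synthase Dkc1 was at -0.51 ± 0.15. Of 28 initiation factors 11 were above 0 (median -0.073), with Eif5 at -0.95 ± 0.22 and Eif3a at -0.55 ± 0.16. Of 10 elongation and termination factors 5 were above 0 (median -0.048), with Gspt1 at -0.82 ± 0.29 and Etf1 at -0.41 ± 0.16. Of 20 genes of mTORC1 and its control of TOP messengers 5 were above 0 (median -0.17). Deptor, an inhibitor bound to the kinase, was at 70.6, 70.6 and 56.8 CPM against 44.8, 39.9 and 29.1 (-0.80 ± 0.19, edgeR adjusted p = 0.137), and Rragd, a GTPase that brings it to the lysosome, was at -0.97 ± 0.29. The groups did not overlap for either gene, both named for a low p, and 12.5% of all genes were lower with no overlap.

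Other messengers known for a TOP start lay between. Of 19 such genes 12 were above 0, with a median of 0.11. The small RNA host Snhg1 was at 5.26, 5.94 and 9.85 CPM against 11.03, 11.7 and 11.4 (0.70 ± 0.25, edgeR adjusted p = 0.197), and the translationally controlled tumour protein Tpt1 was at 978, 1117 and 1200 CPM against 1567, 1457 and 1587 (0.48 ± 0.18, edgeR adjusted p = 0.206). The mitochondrial ribosomal proteins, another set of short messengers, had 55 of 78 above 0 and a median of 0.16. Mrpl52 led them at 0.68 ± 0.16 (edgeR adjusted p = 0.134), with Mrpl57 at 0.51 ± 0.13. The lists share their libraries and differ in length, so nothing particular to one of them is read from these medians.

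Markers of other cells differed between the libraries too. Fibro-adipogenic progenitor markers were at 6646 to 7347 summed CPM in glycerol against 4795 to 5848 in glycerol+melatonin, with 2 of 7 above 0. Of 7 markers of newly formed fibres 6 were above 0, while their sum, most of it Actc1, was at 2778 to 3108 and 1720 to 2580. Macrophage markers overlapped (634.8 to 909.8 and 640.5 to 892), as did those of satellite cells (28.0 to 33.4 and 24.5 to 29.2) and of proliferation (25.8 to 39.1 and 26.9 to 41.9). Both neutrophil markers measured, S100a9 and Csf3r, were above 0, from 2.99 to 3.61 and from 4.18 to 15.5 summed CPM. Of 6 slow fibre markers 5 were above 0, with a median log2 fold change of 0.63, and 3 were higher with no overlap, while their sums were 62.5 to 216 and 206 to 231 CPM. Over all genes tested, 51.7% were above 0 and 13.6% higher with no overlap. Endothelial markers were at 896 to 1080 and 775 to 1262 summed CPM, and red cell markers at 154 to 376 and 101 to 336.5. No marker list had a gene that passed edgeR's test. The part of these cells in the ribosomal levels was not tested.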

How the data were processed

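Raw counts per gene of the 6 libraries, in 1 table, are what the authors deposited. Per the submitters' processing notes, reads were handled on build mm10 with HISAT2 2.0 and StringTie 1.3.3b, and also with Trimmomatic 0.36, FastQC 0.11.2, DESeq2 1.12.4 and bedtools 2.26.0. Neither the counting tool nor its treatment of strands and of reads that match several places is stated there, and such reads could move between members, paralogs and pseudogenes. Totals were 39310361 to 48879045 counts per library, so spread between mice, not counting, limits most values. Genes, lengths and starts came from GENCODE M21 (GRCm38). The principal transcript was coding and matched to RefSeq, with the best APPRIS rank and support, then the longest.

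The quasi-likelihood test of edgeR 4.0.16, run in R 4.3.3, used TMM factors and filterByExpr on all 6 libraries, with p-values adjusted by Benjamini-Hochberg over 16259 genes. The SE is the log2 fold change's size over the square root of F. CPM carry the TMM factors. Alternatives were other factors and filters, DESeq2 1.42.0, limma-voom (limma 3.58.1), a replicate block, length and GC corrections (spline with 4 degrees of freedom per library), summed pseudogenes and leaving out each library. Scripts were tested on simulated data. Same-numbered libraries did not deviate together (r = -0.010, -0.011 and -0.049), so the numbers were not taken as pairs. Named genes were paralogs, genes grouped by role, in each subunit the 4 lowest p-values, the 4 fold changes nearest to or below 0 and the 3 highest and lowest levels, and in each list the 2 lowest p-values, and some of these are left out of the text. Members and lists were chosen with earlier results of these data known.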

Additional observations from a re-analysis of the deposited data

How the results depend on the processing

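Direction held for 79 of 83 members in every setting run, and a median above that of all genes in all. The settings reversed 14 of 1991 single values. Rpl29 was at -0.25 after the length correction, -0.31 with GC added, -0.22 with the replicate block added, -0.24 with the smooth fitted without the members and -0.23 with the longest transcript. It was at -0.15 without glycerol replicate 1, -0.046 without glycerol replicate 2 and -0.0041 without glycerol+melatonin replicate 1, and at most 0.37, without glycerol replicate 3. Rpl4 was at -0.013 (length), -0.013 (length and block), -0.012 (smooth without members) and -0.043 (longest transcript). Rpl36al was at -0.00050 (length) and Rps26 at -0.017 (length and block).

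The number called higher was 20 by DESeq2 and 8 by limma-voom with sample weights, and 0 in the other settings, among them an adjusted p under 0.1. Higher calls on all genes were 330 by DESeq2, 100 by limma-voom with weights and 3 by edgeR, and calls in either direction 753, 199 and 12. The number higher at an unadjusted p under 0.05 was 23 (length, background 9%), 26 (length and GC, 8.68%) and 25 (length and block, 7.97%). It was 23 with the smooth fitted without members (8.99%) and 31 with the longest transcript (9.21%), both added after seeing the data. With library totals alone it was 71 (16.7%), and by limma-voom with sample weights 72 (14.3%). With a library left out it ran from 26 (5.58%) to 73 (12.3%). The median was 0.32 (length), 0.32 (length and GC), 0.32 (length and block) and 0.33 (smooth without members), and 0.47 to 0.83 with a library left out. Those of the large subunit were 0.32, 0.32 and 0.31 in the first 3 of these, and of the small subunit 0.33, 0.33, 0.33 and 0.33. Small minus large was 0.011 (length), 0.0091 (length and GC), 0.015 (length and block), 0.010 (smooth without members) and 0.13 (limma-voom with weights), and 0.013 to 0.10 with a library left out. With library totals alone the median of all genes was 0.23 and that of the members 0.77. The cause was not tested, except that leaving out a library leaves fewer samples.

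With the replicate number as a block and no length correction, the median was 0.59. In that fit 60 members were higher at an unadjusted p under 0.05 (background 8.99%). At an adjusted p under 0.05, 0 of 16259 genes passed in place of 12. Depth limits Rpl39l, with 8 to 36 reads. No other member is limited by counting. All p-values rest on 3 mice in each group.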

Other observations

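The profile over libraries was not the same in every member, and the genes named here were chosen after their values were seen. Glycerol replicate 3 was the highest glycerol library in 77 of 83 members, and among the other 6 were Rpl15, Rpl3l, Rps10, Rps24 and Rps26. In Rps26 glycerol replicate 1 was the highest of its group and replicate 3 the lowest, at 281, 236 and 197 CPM in replicates 1, 2 and 3, against 275, 227 and 402 in glycerol+melatonin. Rps24 was level in glycerol, at 294.5, 309 and 292 CPM, and spread from 297 to 536 in glycerol+melatonin. Rps10 was at 136, 117 and 127.5 CPM against 156, 165 and 206. In Rps26, Rps24 and Rps10 glycerol+melatonin replicate 3 was the highest of all libraries, as in 38 of 83 members. In Rpl3l alone it was the lowest.

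Among retrocopies outside the rule, Rpl37rt was at 1.98, 2.03 and 2.38 CPM in glycerol and 3.68, 3.82 and 3.66 in glycerol+melatonin (0.81 ± 0.20, edgeR adjusted p = 0.141), close to its parent Rpl37. Reads of the 2 cannot be told apart with certainty here.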
